A study of Homo sapiens with 4 samples.

Results

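The genes described here are 10 regulators of mitosis, namely the kinases AURKA, AURKB, PLK1, PLK4, NEK2, and CDK1, the cyclins CCNB1 and CCNB2, the phosphatase CDC25C, and the ubiquitin ligase co-activator CDC20. They were matched by symbol in a table of 20372 genes, each member by a single entry. All 10 were chosen with their 24 h and 6 h counts already known. The difference between the time points is therefore given for them as a description, with its error and without a test. The libraries came from TPC1, a line grown from a human papillary thyroid carcinoma in which part of CCDC6 is joined to the RET kinase, treated with the RET inhibitor BLU6864 for 6 h or for 24 h. Each time point has 2 libraries, and the labels mark those of 24 h as re-analysed. The sample labels give a dose of 100 microMolar and single-end reads of 50 bases, whereas the methods give 100 nM and longer paired-end reads. Both groups carry the same fusion and the same inhibitor, and untreated libraries were not analysed here. The effect of longer exposure therefore cannot be told apart from that of longer culture. The re-analysed mark falls on the 24 h libraries alone, so any difference it stands for cannot be told apart from time either. Total counts lay between 23917056 and 27457040 per library. Nothing in the labels says whether the 2 libraries of a time point came from separate cultures, so P values measure the spread between these libraries, which may be technical.

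Entry into mitosis depends on CDK1, a kinase that must bind a cyclin, such as a B-type cyclin, to be active. The CDC25 phosphatases must also have removed its inhibitory phosphates. Polo-like, Aurora, and NIMA-related kinases then act at the centrosomes, the spindle, and the centromeres. CDC20 binds the anaphase-promoting complex (APC/C) and directs it to B cyclins and securin, which ends mitosis. In dividing cells, the messages of most of these genes build up in G2 and are low in G1. Their promoters are known for a cell cycle homology region (CHR), which is bound by the DREAM and MuvB complexes, and for CCAAT boxes bound by NF-Y.

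The start windows of the members are shown first because these motifs are what the group is known to share in its DNA, and the rule that chose the genes did not use them. Each window in RefSeq (build GRCh38.p14) runs from 250 bases before an annotated start to 50 bases after it. Windows were matched for 9 of the 10 members (not AURKA), and some members have several. CHR letters (TTTGAA or TTCGAA on either strand) were found in a window of 6 of the 9 members, and in 15.5% of the 9717 tested genes with a window. CCAAT, also on either strand, was found in all 9, against 43.5% of those genes. The E2F letters GCGGGAA were found in 1 member, CDC25C, against 12.7%. A gene with several windows had more chances to hold a match, and a match is a description of letters, not a bound site. The stretches below are written 5′ to 3′ on the strand of the gene, with CHR and CCAAT letters in capitals (ATTGG is CCAAT on the other strand). Those of CCNB2 (chr15:59104996-59105145, plus strand), PLK1 (chr16:23678739-23678888, plus), and CDC20 (chr1:43358831-43358980, plus) hold both motifs within the 150 bases before the start. Those of CCNB1 (chr5:69167000-69167149, plus) and NEK2 (chr1:211675622-211675771, minus) hold a pair of CCAAT boxes and neither TTTGAA nor TTCGAA. Other spellings of the CHR were not searched, so these genes are not said to lack one. For CDK1 (chr10:60778396-60778425, plus) and CDC25C (chr5:138331815-138331844, minus), 30 bases around 1 CHR match are given, since another start is annotated upstream. CDK1 held CHR letters elsewhere too, at positions given below. Another CDC25C window appears to hold the same match, counted from a different start.
CCNB2: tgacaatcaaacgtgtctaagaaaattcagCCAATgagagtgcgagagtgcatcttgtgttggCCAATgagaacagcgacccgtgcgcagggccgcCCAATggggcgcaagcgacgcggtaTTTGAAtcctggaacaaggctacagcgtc
PLK1: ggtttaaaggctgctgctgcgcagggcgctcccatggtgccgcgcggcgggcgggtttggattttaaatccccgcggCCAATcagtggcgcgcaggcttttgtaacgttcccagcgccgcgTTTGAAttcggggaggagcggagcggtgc
CDC20: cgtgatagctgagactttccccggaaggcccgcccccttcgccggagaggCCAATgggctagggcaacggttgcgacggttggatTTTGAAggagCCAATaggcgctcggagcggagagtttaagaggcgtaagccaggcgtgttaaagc
CCNB1: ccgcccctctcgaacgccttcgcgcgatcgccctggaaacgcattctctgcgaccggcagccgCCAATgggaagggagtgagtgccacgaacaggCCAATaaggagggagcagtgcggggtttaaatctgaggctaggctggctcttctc
NEK2: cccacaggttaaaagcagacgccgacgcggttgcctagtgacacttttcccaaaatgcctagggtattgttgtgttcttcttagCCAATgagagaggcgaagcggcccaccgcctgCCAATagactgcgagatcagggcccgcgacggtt
CDK1: tctgATTGGctgcTTTGAAagtctacgggc
CDC25C: tggcggaaggTTTGAAtggtcaacgcctgc

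CHR letters began at similar positions in some of these windows and at other positions in the rest. In CCNB2 and in PLK1 the CHR letters began 29 bases before the start, and in 1 of 4 CDC25C windows 30 bases before it. Counted from the start, with negative values before it, CHR letters began at -178 and -65 in CDC20 and at 38 in PLK4. In CDK1 they began at -161 in 1 window and at -69, -13, and 9 in the other. Another CDC25C window held them at 43, with ATTGG at -12. In the window with CHR letters at -30, ATTGG began at -85. The spacing is the same, so these appear to be the same letters counted from different starts. CCNB2 held CCAAT at 120, 87, and 54 bases before the start, and CCNB1 at 87 and 55. CCAAT also began at -244 in CCNB2, -73 in PLK1, -100 and -55 in CDC20, and -66 and -34 in NEK2.

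**Figure D1:**
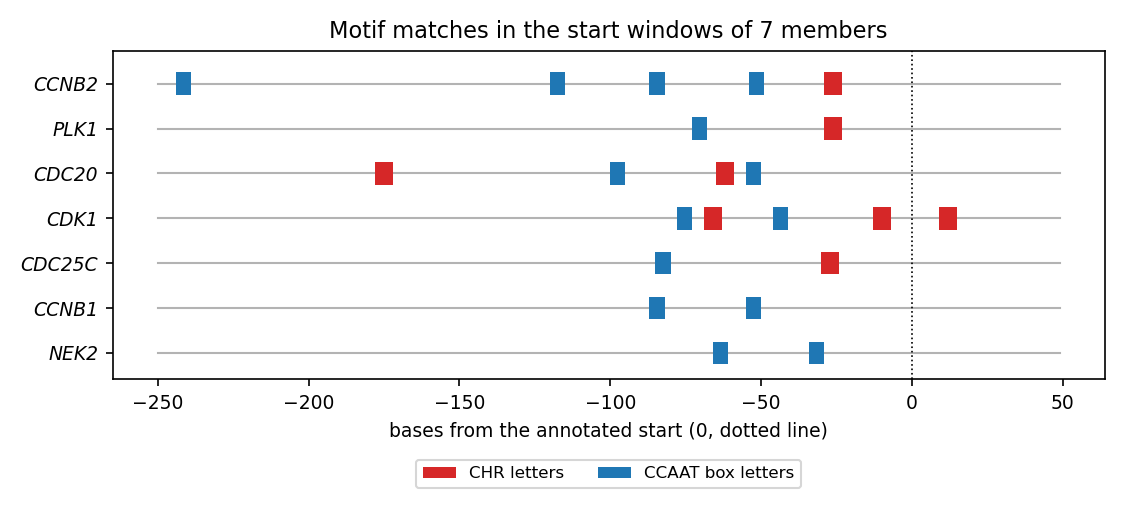
Positions of CHR letters (red) and CCAAT box letters (blue) in a start window of 7 members, in bases from the annotated start, with each grey line spanning the window from 250 bases before to 50 bases after it. The CHR letters of CCNB2, PLK1, and CDC25C lie at 29, 29, and 30 bases before the start. Those of CDC20 and CDK1 lie at other positions. CCNB1 and NEK2 show CCAAT boxes and neither of the CHR spellings searched.

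At 6 h the members made up 0.144% of the counts of the first library (34518 counts; exact binomial 95% interval, 0.143% to 0.146%) and 0.146% of those of the second (39295 counts; 0.145% to 0.148%). At 24 h their part was 0.00810% (2146 counts; 0.00776% to 0.00845%) and 0.00814% (2235 counts; 0.00781% to 0.00849%). These shares use no scaling between libraries, and their intervals cover counting error only. In RNA from a whole culture, fewer cells in G2 and mitosis and less of these messages per cell cannot be told apart.

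Each member was lower in both 24 h libraries than in both 6 h libraries, a separation seen in this direction in 40.8% of the 12876 genes tested. Fitted with edgeR, all 10 had a log2 fold change under -0.5 with an unadjusted P under 0.01, the cutoffs of the methods, which 17.7% of tested genes passed downward. A stricter rule, used as an alternative for the lists (adjusted P under 0.05 and a log2 fold change beyond 1), was passed downward by 8.5% of tested genes and upward by 7.17%. Because the members were chosen on this contrast, their place under any of these rules was fixed by that choice, and nothing is read from it. The median log2 fold change of the members was -4.14, against 0.0029 over all genes tested. A log2 fold change under -3, which every member had, was found in 229 genes, or 1.78% of those tested.

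**Figure D2:**
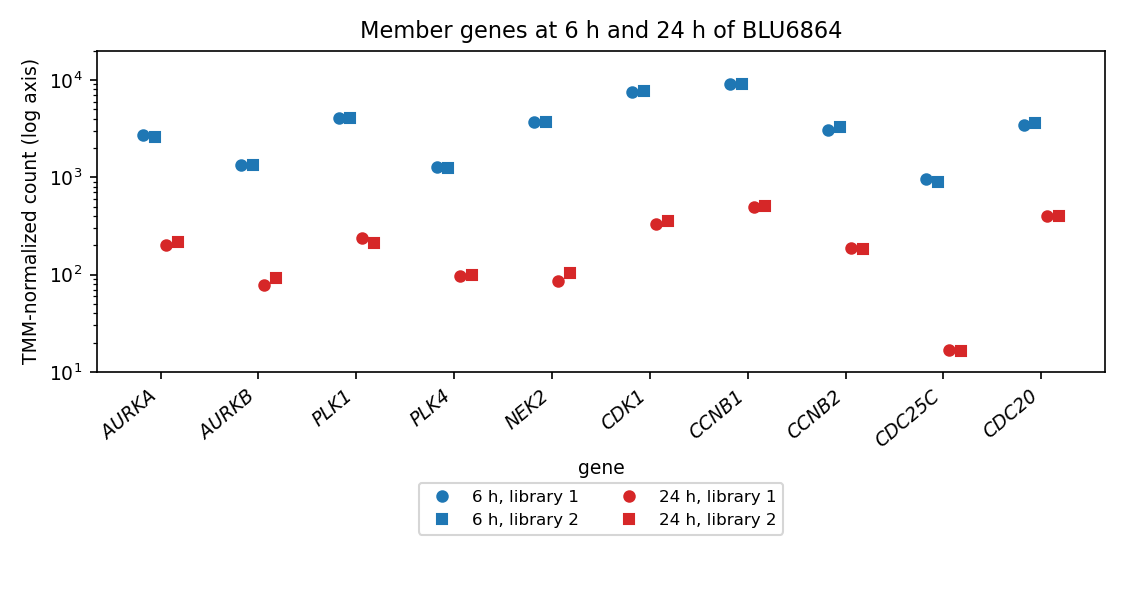
TMM-normalized counts (log axis) of the 10 members in each library, with 6 h in blue and 24 h in red, and circles and squares for the first and second library of a time point. Every red point lies below every blue point of the same gene, and CDC25C is lowest at 24 h, at 16.9 and 16.5 normalized counts.

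CCNB1 and CDK1 had the highest counts of the members at 6 h. CCNB1 (ENSG00000134057; hg19 chromosome 5, 68462837 to 68474072), the main B cyclin of mitotic entry, had 8400 and 9597 counts at 6 h, against 496 and 516 at 24 h. The level was 18.3-fold lower, or -4.20 as a log2 fold change (standard error 0.0833). CDK1 (ENSG00000170312; chromosome 10, 62538089 to 62554610), the catalytic subunit, had 7021 and 8083 counts at 6 h and 336 and 368 at 24 h, or -4.47 as a log2 fold change (standard error 0.0864). CCNB2 (ENSG00000157456; chromosome 15, 59397277 to 59417244), a B cyclin found at the Golgi, had 2851 and 3402 counts at 6 h and 188 and 187 at 24 h, which gives -4.10 on the log2 scale (standard error 0.0884). For all 3 genes the libraries of a time point lay close together, and the time points were far apart.

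CDC25C and CDC20, which act before and after the CDK1 complex, had the largest and the smallest difference of the group. CDC25C (ENSG00000158402; chromosome 5, 137620954 to 137674044), a phosphatase that activates CDK1, had 892 and 938 counts at 6 h and 17 and 17 at 24 h. The difference of -5.79 on the log2 scale (standard error 0.153) was the tenth lowest of the genes tested, and 1.80% of its 6 h level was left. CDC20 (ENSG00000117399; chromosome 1, 43824626 to 43828874) had 3201 and 3781 counts at 6 h and 405 and 407 at 24 h. The log2 difference was -3.15 (standard error 0.0797), and 11.3% of its 6 h level was left.

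Among the remaining kinases, NEK2 (ENSG00000117650; chromosome 1, 211836114 to 211848960), which separates the centrosomes, stood apart from the rest. It had 3455 and 3856 counts at 6 h and 87 and 107 at 24 h, a difference of -5.28 on the log2 scale (standard error 0.0992). PLK1 (ENSG00000166851; chromosome 16, 23688977 to 23701688), a kinase of mitotic entry and spindle assembly, had 3764 and 4244 counts at 6 h and 237 and 216 at 24 h, with a fitted difference of -4.19 on the log2 scale (standard error 0.0877). PLK4 (ENSG00000142731; chromosome 4, 128802016 to 128820350), which starts centriole duplication and so acts before mitosis, had 1179 and 1307 counts at 6 h and 98 and 102 at 24 h. The log2 difference, -3.68 (standard error 0.105), was close to the -3.67 (standard error 0.0868) of AURKA.

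AURKA (ENSG00000087586; chromosome 20, 54944445 to 54967393), the Aurora kinase of centrosomes and spindle poles, had 2525 and 2689 counts at 6 h and 204 and 220 at 24 h. AURKB (ENSG00000178999; chromosome 17, 8108056 to 8113918), the kinase of the chromosomal passenger complex, had 1230 and 1398 counts at 6 h and 78 and 95 at 24 h, or -3.97 on the log2 scale (standard error 0.110). The normalized counts of AURKB, NEK2, and PLK1 in the 24 h libraries differed by 17.3%, 18.3%, and 11.6% of their mean, whereas those of the other 7 members differed by 1.60% to 6.74%. At 6 h the gap was between 0.205% and 6.77% for all members.

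**Figure D3:**
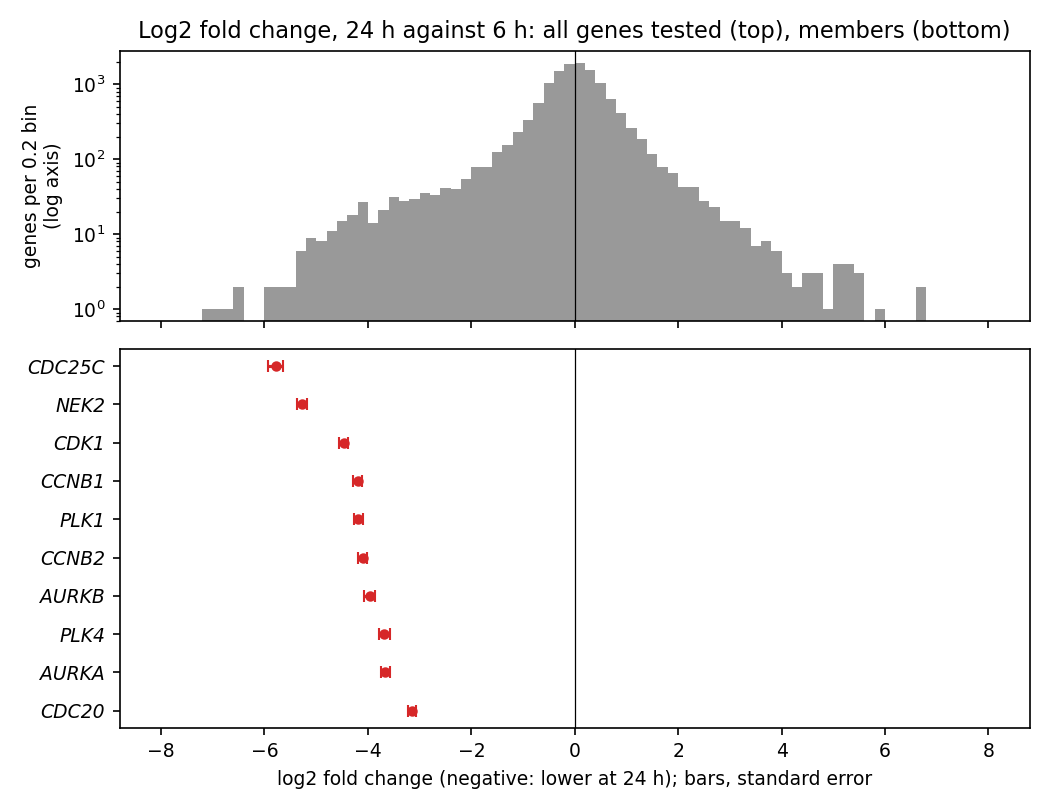
Histogram of the log2 fold change, 24 h against 6 h, of the 12876 genes tested (top; count axis logarithmic) above the log2 fold change of each member with its standard error (bottom). The members run from -5.79 in CDC25C to -3.15 in CDC20, within the lower tail of the histogram.

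Some counts are uncertain because genes overlap or have copies. CDC25C shares 6421 bases with FAM53C, which had 1352 and 1595 counts at 6 h and 1546 and 1617 at 24 h. PLK1 shares 42 bases with ERN2, which had 438 and 453 counts at 6 h and 177 and 158 at 24 h. Whether the counting used strand is not given in the sources used here, so reads in the shared bases cannot be assigned with certainty. GENCODE names pseudogenes of AURKA, AURKB, NEK2, CCNB2, and CDC20, and how reads that match such copies were counted is not stated either.

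Ratios of raw counts between members of the same library need no scaling. The ratio of CCNB1 to CCNB2 was 2.95 and 2.82 at 6 h and 2.64 and 2.76 at 24 h. The Aurora kinases moved apart a little more, with an AURKA to AURKB ratio of 2.05 and 1.92 at 6 h and 2.62 and 2.32 at 24 h. PLK1 to PLK4 was 3.19 and 3.25 at 6 h and 2.42 and 2.12 at 24 h. CDC20 to CCNB1 was 0.381 and 0.394 at 6 h and 0.817 and 0.789 at 24 h, and CDK1 to CDC25C was 7.87 and 8.62 at 6 h and 19.8 and 21.6 at 24 h. In each of these pairs the 6 h and 24 h ratios did not overlap. How often other gene pairs separate in this way was not counted, so nothing is read from it. The fitted log2 fold changes of CCNB1 and CCNB2, -4.20 and -4.10, were close beside standard errors of 0.0833 and 0.0884. The makeup of the group was described in the same libraries. CDC20 gave 9.27% and 9.62% of the member counts at 6 h and 18.9% and 18.2% at 24 h, whereas NEK2 gave 10.0% and 9.81% at 6 h and 4.05% and 4.79% at 24 h. CCNB1 kept the largest part, with 24.3% and 24.4% at 6 h and 23.1% in both 24 h libraries.

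Levels of different genes were compared per kilobase of the Ensembl canonical transcript. At 6 h CCNB1 had 4469 and 4538 normalized counts per kilobase and CDK1 4012 and 4105, followed by CDC20 and CCNB2, whose values overlapped (2096 and 2200 against 2068 and 2193). PLK1, NEK2, AURKA, and AURKB came next, with means of 1883, 1741, 1305, and 1074 normalized counts per kilobase. CDC25C and PLK4 were lowest, with 445 and 329. At 24 h CCNB1 and CDC20 led, with overlapping values (244 and 247 against 245 and 240), and CDK1 followed with 177 and 190. PLK1 and AURKA overlapped at 24 h, with means of 103.3 and 102.6, and CDC25C was lowest, with 8.09 and 7.90 normalized counts per kilobase. The order rests on the length used. Per kilobase of coding sequence, an alternative chosen after seeing the data, CDK1 was above CCNB1 at 6 h (means of 8605 and 7034), and 5 of the 10 members kept their place.

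Genes that share a family with a member are described beside the members, which were chosen on this contrast. A smaller difference in a relative is therefore not read as a result. Of 29 relatives, 27 were tested. Of these, 11 were lower and 5 higher at 24 h past the cutoffs, against 17.7% and 17.4% of all genes tested. The median log2 fold change of the relatives was -0.30. These and the other pathway lists were written with earlier results of these data known, so they are not independent of them.

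The 2 polo-like relatives tested were both higher at 24 h, as were 17.4% of all genes tested. PLK2, a stress-responsive kinase of the centrosome, had 5103 and 5628 counts at 6 h and 14976 and 14407 at 24 h, and it rose by 1.41 on the log2 scale (standard error 0.0761), with an edgeR adjusted P of 5.59e-15. PLK3 rose from 265 and 311 counts to 436 and 446 (log2 fold change 0.57, edgeR adjusted P = 1.98e-05). PLK1 and PLK4 were lower at 24 h, but they were chosen on this contrast, so nothing is read from the opposite directions. PLK5 had 0 and 1 counts at 6 h and 9 and 17 at 24 h, and AURKC had between 5 and 13 counts in any library, and neither was tested.

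Of 10 relatives of NEK2, 2 fell, 2 rose, and 6 did not pass, shares near the 17.7% and 17.4% of all genes tested, with a median log2 fold change of 0.0031. Those that fell were NEK7 and NEK1 (log2 fold change -0.55 for NEK1), and those that rose were NEK6 and NEK11 (0.63 for NEK11). NEK6 and NEK7 are closely related kinases that NEK9 activates in mitosis. NEK7 fell from 6947 and 7745 counts to 2950 and 3059 (log2 fold change -1.34, edgeR adjusted P = 4.64e-15), whereas NEK6 rose from 3648 and 4244 counts to 6762 and 6960 (log2 fold change 0.75, edgeR adjusted P = 5.36e-10). NEK9 did not pass the cutoffs, at 0.15 on the log2 scale (standard error 0.0704). The lowest log2 fold change among these relatives was the -1.34 of NEK7, against -5.28 for NEK2, which was chosen on this contrast.

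Of 9 relatives of CDK1, 3 fell, 1 rose, and 5 did not pass, where 17.7% of all genes tested fell and 17.4% rose. CDK2, the S phase kinase, fell from 1263 and 1433 counts to 658 and 646, or -1.09 on the log2 scale (edgeR adjusted P = 2.22e-12). CDK7, which activates CDK1 by phosphorylation, and CDK5 fell less, with log2 fold changes of -0.58 and -0.55. CDK4, a G1 kinase, rose from 2387 and 2564 counts to 4142 and 4067 (log2 fold change 0.68, edgeR adjusted P = 3.57e-09), and CDK6 had a log2 fold change of 0.42, short of the cutoff.

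The phosphatases related to CDC25C were also lower at 24 h. CDC25B had 8377 and 8992 counts at 6 h and 3351 and 3837 at 24 h (log2 fold change -1.32, edgeR adjusted P = 2.31e-14), so it was far more abundant than CDC25C at both times. CDC25A had 120 and 142 counts at 6 h and 69 and 58 at 24 h (log2 fold change -1.09). Among the cyclins, CCNA2, the A cyclin of S phase and G2, was close to the B cyclins, with 3126 and 3368 counts at 6 h, 137 and 163 at 24 h, and a log2 fold change of -4.48 (standard error 0.0934). CCNA1 and CCNB3 were scarce and had log2 fold changes of -1.44 and -0.62. FZR1, which replaces CDC20 on the APC/C in late mitosis and G1, fell by 0.61 on the log2 scale, from 2186 and 2343 counts to 1528 and 1534.

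**Figure D4:**
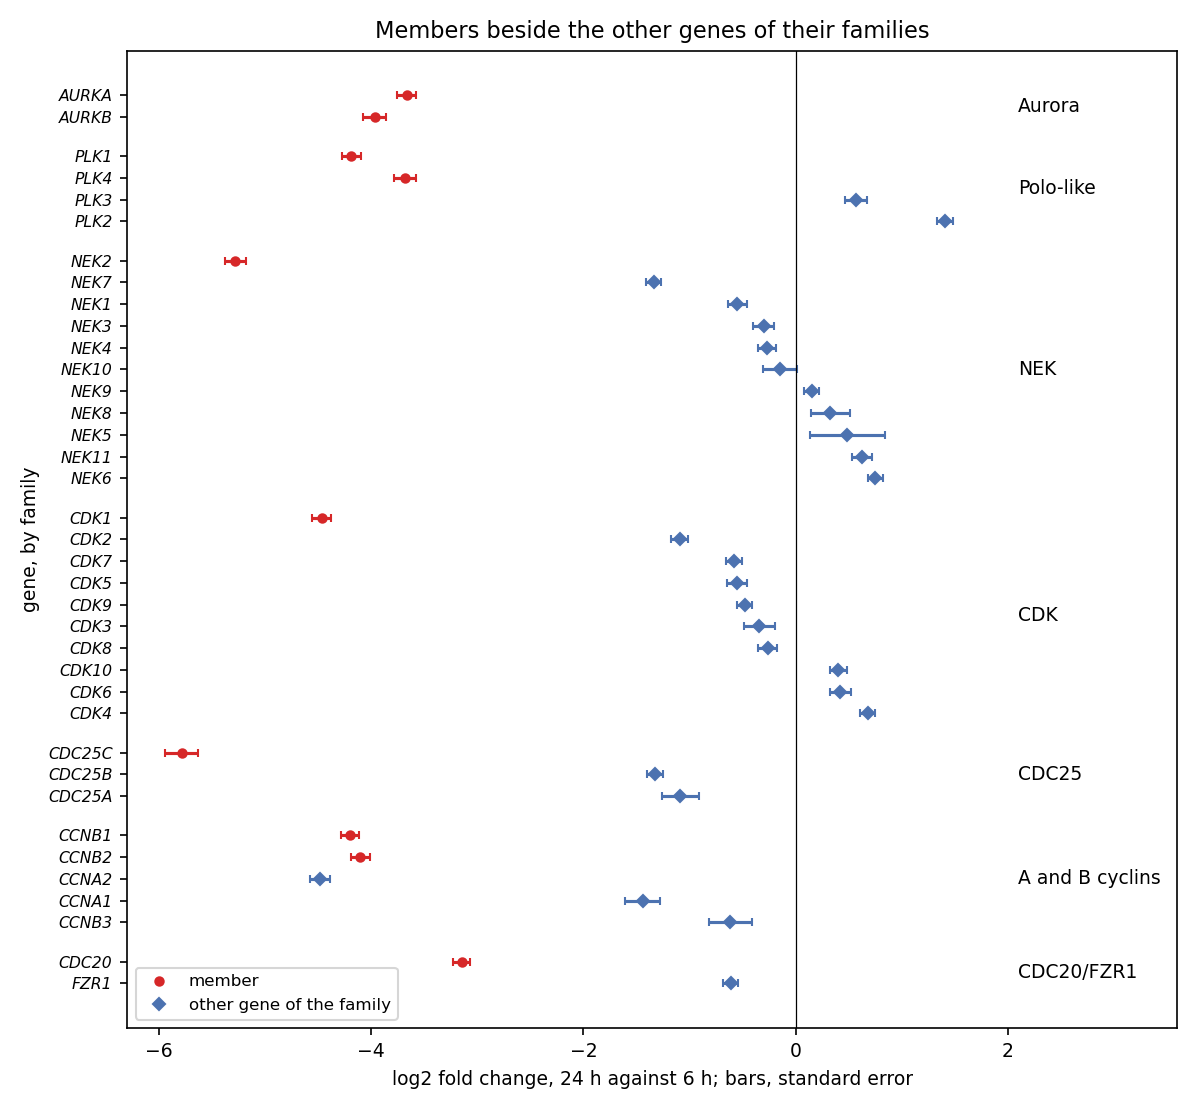
Log2 fold change, 24 h against 6 h, with standard error, of the members (red circles) and the other tested genes of their families (blue diamonds). CCNA2 (-4.48) is the only blue diamond in the range of the members, and PLK2 (1.41) lies furthest to the right.

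The regulators and partners of the members were described with 7 lists, of which the family relatives were the first. Over all lists, with each gene taken once, 135 of 138 genes were tested. Of these, 69 fell, 10 rose, and 56 did not pass, against 17.7% lower and 17.4% higher over all genes tested. The median log2 fold change of the listed genes was -0.53.

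Partners of the Aurora, polo-like, and NEK kinases had the lowest median. Of 23 tested, 18 fell (78.3%, against 17.7% of all genes tested) and 1 rose, with a median log2 fold change of -1.98. NDC80, the kinetochore protein that NEK2 phosphorylates, had a log2 fold change of -4.69 (standard error 0.122), KIF20A, a kinesin of the midzone and a partner of PLK1, -4.44 (standard error 0.0903), and the passenger complex subunits BIRC5 and CDCA8 -4.30 and -4.19. TPX2, which activates AURKA on the spindle, fell from 4832 and 5109 counts to 413 and 445, a log2 fold change of -3.58. It lies outside the naming rule and was chosen after its values were seen. AJUBA, a LIM protein that also activates AURKA and works in cell adhesion, rose from 879 and 1064 counts to 3741 and 4061 (log2 fold change 1.96, edgeR adjusted P = 3.17e-18).

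Of 17 other kinases with a part in mitosis, 10 fell (58.8%, against 17.7% of all genes tested) and 2 rose. The median log2 fold change of the 17 was -1.34. PBK had a log2 fold change of -5.21, TTK of -4.93, BUB1B of -4.53, and BUB1 of -4.41. The last 3 act in the spindle checkpoint, and TTK fell from 2931 and 3300 counts to 103 and 107. NEK6, described above, and STK10, a kinase of the cell cortex, rose, the latter with a log2 fold change of 0.54, close to the cutoff.

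Among 19 regulators of CDK1, 11 fell (57.9%, against 17.7% of all genes tested) and 1 rose. The median log2 fold change of the 19 was -0.58. The kinases that inhibit CDK1 differed from each other. PKMYT1 had 295 and 373 counts at 6 h and 36 and 19 at 24 h, or -3.64 on the log2 scale (standard error 0.189) with an edgeR adjusted P of 2.56e-15. WEE1 had 906 and 976 counts at 6 h and 725 and 794 at 24 h, and its log2 fold change of -0.36 (standard error 0.0810) did not pass the cutoff. The small CDK-binding protein CKS1B had a log2 fold change of -2.27, but the table holds a second entry of that name elsewhere, with 233 and 307 counts at 6 h, so reads may be split between near-identical copies. SFN, a 14-3-3 protein that holds CDK1 complexes in the cytoplasm, was scarce, with 26 and 30 counts at 6 h and 7 and 3 at 24 h. LATS2, a Hippo pathway kinase, rose by 0.90 on the log2 scale (edgeR adjusted P = 1.01e-10).

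The APC/C list held genes of different behaviour. Of 25 genes tested, 13 fell (52.0%, against 17.7% of all genes tested) and 1 rose. UBE2C, the E2 enzyme that starts ubiquitin chains for the complex, fell from 1782 and 2020 counts to 84 and 94 (log2 fold change -4.46). MAD2L1, the checkpoint protein that holds CDC20 inactive, PTTG1 (securin), and ESPL1 (separase) had log2 fold changes of -3.80, -3.51, and -3.45. The subunits of the complex itself, grouped after their values were seen, were nearer to 0. Of 14 core subunits, 3 fell (ANAPC10, ANAPC15, and CDC27), 1 rose (ANAPC1, log2 fold change 0.54), and 10 did not pass. The part that fell was near the 17.7% of all genes tested that did. The log2 fold changes of the core subunits lay between -0.76 and 0.54, with a median of -0.09. Of the 11 enzymes, co-activators, inhibitors, and substrates, 10 fell, and the remaining gene, UBE2D1, had a log2 fold change of -0.27.

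The Greatwall pathway keeps the phosphatase PP2A off while CDK1 is active. Of 12 genes of this list tested, 4 fell (33.3%, against 17.7% of all genes tested) and 1 rose. The median log2 fold change of the 12 was -0.32. MASTL, the Greatwall kinase, fell from 1339 and 1317 counts to 273 and 291, a log2 fold change of -2.28 (standard error 0.0936) and an edgeR adjusted P of 1.37e-17. PPP2R2C had a log2 fold change of -2.28 as well, at 97.2 and 99.8 normalized counts at 6 h. PPP1CC, a catalytic subunit of the phosphatase PP1, fell with a log2 fold change of -0.78. ENSA, a target of MASTL, had a log2 fold change of -0.52, and the other target, ARPP19, had -0.29, which did not pass. The PP2A scaffold PPP2R1A rose with a log2 fold change of 0.56.

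The transcription factor list held 22 genes that act on promoters of S, G2, and mitotic genes, including partner proteins of such factors and MuvB subunits. Of these 22, 10 fell (45.5%, against 17.7% of all genes tested). None (0) rose past the cutoffs in edgeR or in DESeq2, while 4 had a positive change at an unadjusted P under 0.05 in edgeR. E2F8, MYBL2, E2F2, and E2F1 had log2 fold changes of -3.95, -3.49, -3.34, and -3.30. FOXM1, an activator of G2 genes that was chosen here after its values were seen, fell from 1824 and 2113 counts to 275 and 319 (log2 fold change -2.77). The NF-Y subunits NFYA, NFYB, and NFYC, which bind the CCAAT box, had log2 fold changes of -0.07, -0.05, and -0.12. None (0) of these 3 passed the cutoffs in edgeR or DESeq2 or had an unadjusted P under 0.05 in edgeR.

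**Figure D5:**
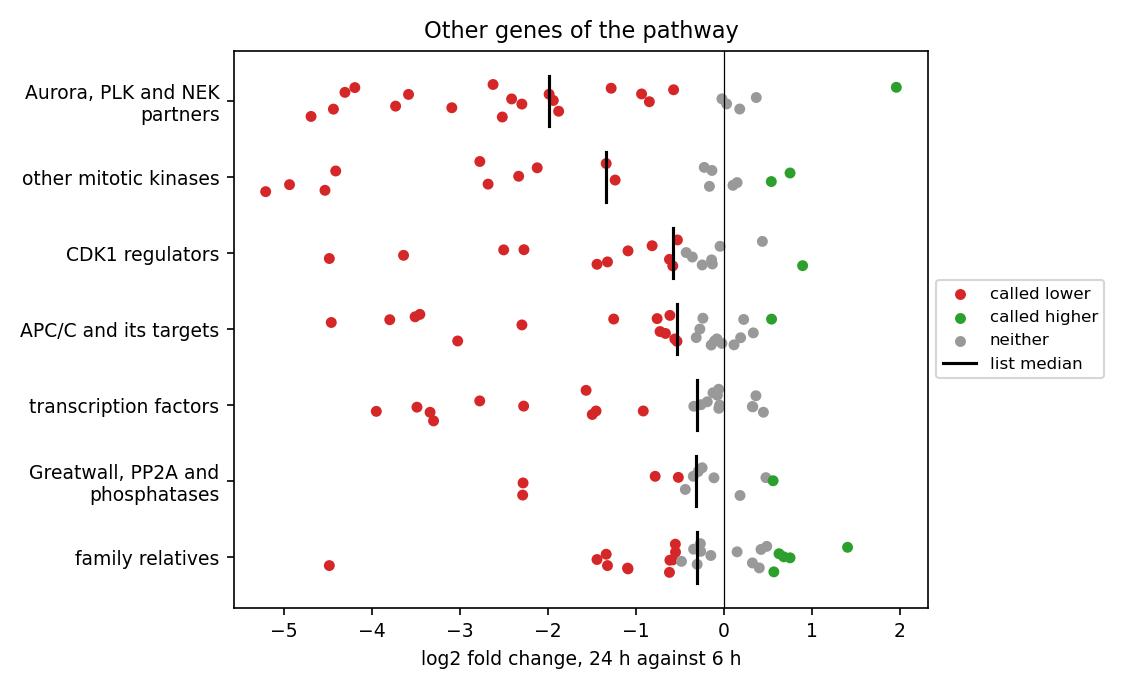
Log2 fold change, 24 h against 6 h, of each tested gene in the 7 lists, in red where called lower, green where called higher, and grey otherwise, with the median of each list as a black bar. The medians run from -1.98 for the partners of the Aurora, polo-like, and NEK kinases to -0.30 for the family relatives and the transcription factor list.

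The 5 genes with at least 100 normalized counts whose profile over the 4 libraries was nearest to the median profile of the members were CENPF, CDCA2, DEPDC1B, DEPDC1, and FAM64A. Their Euclidean distances on the centred log2 scale were 0.0482, 0.0648, 0.0914, 0.0920, and 0.0984. CENPF, a large kinetochore protein, had 4086 and 4183 normalized counts at 6 h and 227 and 225 at 24 h. With 2 libraries at each of 2 time points, this likeness is mostly a likeness of the difference between the time points.

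Markers of the cells were examined for the same libraries. Of 8 thyroid markers, PAX8 had between 19124 and 22978 counts in a library and HHEX, FOXE1, and TG were detected, whereas NKX2-1 and TSHR were at 0 in every library. Of 10 leukocyte markers, 2 (CD14 and ITGB2) had more than 3 counts in every library, and the summed count was 120 and 129 at 6 h and 257 and 254 at 24 h. PTPRC had at most 5 counts. The summed count of 6 fibroblast markers was 568 and 656 at 6 h and 257 and 302 at 24 h. PDGFRB gave 303 and 373 of these counts at 6 h and 111 and 138 at 24 h. COL1A1 gave 218 and 237 at 6 h and 63 and 95 at 24 h. LUM went the other way, from 39 and 40 counts to 71 and 66, and COL3A1 was at 0. For 4 endothelial markers the summed count was 509 and 536 at 6 h and 55 and 29 at 24 h. KDR gave 485 and 517 of these counts at 6 h and 44 and 22 at 24 h, and CDH5 had at most 1 count. The part of these markers in the results was not tested.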

How the data were processed

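RNA from TPC1 cells was sequenced after 6 h and 24 h of BLU6864, with 2 libraries each. Per the labels, the authors used STAR 2.3, DESeq2, and build hg19, while the methods name a later STAR. The counting program and the annotation release are not given in the sources used here. They deposited raw read counts per gene and those counts scaled by a single factor per library (a normalized signal), used only to check that the factor is constant within each library. The deposited table also holds the authors' own fold changes and P values, which were not used. 

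Raw counts were fitted with edgeR 4.0.16 in R 4.3.3 (filterByExpr, 12876 genes, TMM, quasi-likelihood test, time as the only factor). Adjusted P values are Benjamini-Hochberg values over all genes tested. A gene was called when its unadjusted P was under 0.01 and its log2 fold change lay beyond 0.5 in either direction. The methods give these cutoffs for lower genes, and the same values were applied here to higher genes. To obtain normalized counts, each count was divided by the effective library size (total times TMM factor) and multiplied by the mean effective size. Standard errors were derived from the fold change and the F statistic. DESeq2 1.42.0 was an alternative. The procedure was tested on simulated data. Both pairs of libraries varied beyond sampling noise (chi-square over degrees of freedom, 10 and 7.65 for 6 h and 24 h), so none was merged.

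Transcript and coding lengths came from GENCODE v44 by Ensembl identifier. Start windows came from RefSeq GRCh38.p14, and gene positions are those of the table in hg19. No protein sequences were used here. Likeness used log2 of normalized counts plus 0.5.

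The members and lists were chosen with earlier results of these data known. Named were all members, up to 4 genes called in each direction in each list, some family relatives of the members, and the 5 genes most alike. Genes outside this rule are marked as chosen after their values were seen, as are the core subunits ANAPC10, ANAPC15, and CDC27, UBE2D1, WEE1, ARPP19, the NF-Y subunits, the genes that overlap a member, and the marker genes. Alternatives were DESeq2, upper quartile scaling, library size alone, no filter, at least 10 counts in every library, a replicate block, each library left out, and calls at an adjusted P under 0.05 with a log2 fold change beyond 1.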

Additional observations from a re-analysis of the deposited data

How the results depend on the processing

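The direction of every member and of every list median was the same under all alternatives run, namely other scalings, DESeq2, other filters, the replicate block, and each library left out. The members' median log2 fold change of -4.14 was -4.19 with library size alone and lay between -4.17 and -4.10 with each library left out, where the lone library of a time point is assumed to vary like the others. NEK2 ranged from -5.41 to -5.15 and AURKB from -4.09 to -3.85 over all alternatives, the widest ranges among the members. With TMM-scaled library sizes, the members made up 0.142% and 0.144% of the 6 h libraries and 0.00817% and 0.00831% of the 24 h libraries.

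With library size alone, 1 of the other mitotic kinases was higher in place of 2, and with upper quartile scaling 2 genes of the Greatwall list in place of 1. With each library left out, higher genes numbered from 0 to 1 for the APC/C list, from 1 to 2 for the CDK1 regulators and for the Greatwall list, from 0 to 1 for the transcription factors, and from 5 to 7 for the family relatives. Requiring an adjusted P under 0.05 and a log2 fold change beyond 1, a stricter rule by construction, left 1094 lower and 923 higher genes over all genes tested, 7 lower and 0 higher CDK1 regulators, 2 lower and 0 higher Greatwall genes, 0 higher other mitotic kinases, 7 lower and 0 higher APC/C genes, and 6 lower and 1 higher family relatives. For the scalings and the libraries left out, the cause was not tested. Libraries at both times are numbered 1 and 2 with no word on what a number marks, and the deviations of same-numbered libraries correlated at 0.0691 across genes. A fit blocked on replicate number gave 2313 lower and 2283 higher genes, and each list kept its numbers. Coding length kept the place of 4 members in the order at 24 h. The alternative with coding lengths from RefSeq proteins was not run. With 2 libraries per time point, outliers within a group were not tested.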
